A study of Mus musculus with 4 samples.

Results

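Cultures 2 and 4 were compared with cultures 1 and 3 among 4 cultures of mouse cells labelled hepatocyte-like, over 15188 genes that passed a low-count filter out of 78028 rows in each count table. All 4 cultures came from E14TG2a, an established line of mouse embryonic stem cells (mESCs). The sample titles call the cultures mESCs, and the hepatocyte-like label stands outside the titles. All received A-HIC, the hepatic induction cocktail of the series. The labels give no difference of genotype, treatment or time between them, so nothing in the design separates one pair from the other. The pairs were chosen by the measured values: expression in library 2 lay closest to that in library 4, and library 1 closest to library 3. Every size and count below is therefore a description of how these libraries differ, with no test and no p-value. Whether a culture stands for more than 1 dish is not stated in the labels.

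Embryonic stem cells resemble the pluripotent epiblast of the early embryo, and when they leave that state they can take a path to extraembryonic endoderm as well as to the embryo's own germ layers. Primitive endoderm is set by the transcription factors Gata6, Gata4 and Sox17, and one of its descendants, parietal endoderm, lays down Reichert's membrane, a thick basement membrane of type IV collagen and laminin. A basement membrane is a sheet of matrix in which a network of laminin is joined to a network of collagen IV by nidogen and perlecan. Hepatocytes, by contrast, arise from definitive endoderm and secrete albumin and other plasma proteins.

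Libraries held 29.5 M to 40.2 M counts. Libraries 2 and 4 were the deepest, at 40.2 M and 40.1 M against 37.8 M and 29.5 M in libraries 1 and 3, so depth moved with the pairing, and its part in the differences was not tested. The number of genes with a count went from 29788 to 31852 and was not ordered by pair, and the 10 most abundant genes took 4.15% to 4.24% of the counts in every library. Levels are counts per 1 M counts (CPM) after scaling with TMM factors, which ran from 0.956 to 1.04. A difference is the mean log2(CPM + 0.5) of cultures 2 and 4 minus that of cultures 1 and 3, and it understates the ratio of genes with low values. Levels are not scaled for gene length and are compared only between cultures, not between genes.

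Within the pairs the root mean square log2 difference over genes was 0.281 for cultures 1 and 3 and 0.296 for cultures 2 and 4. Across the pairs it was 0.394 to 0.531, largest between cultures 1 and 2 and smallest between cultures 3 and 4. At least 2-fold apart were 115 and 134 genes within the pairs and 398 to 1001 genes across them. The first principal component held 70.4% of the variance, with culture 1 at one end, culture 2 at the other, and cultures 3 and 4 between them on the sides of their partners. The 4 cultures thus lay in an order as well as in pairs.

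In all, 1196 genes (7.87% of those compared) were at least 1.5-fold higher in cultures 2 and 4, with both libraries above both of cultures 1 and 3, and 706 genes (4.65%) were lower by the same rule. At 2-fold or more the counts were 330 higher (2.17%) and 178 lower (1.17%), and without library 4 the first was 503. Without a size threshold, 33.3% of genes lay higher in both of cultures 2 and 4 without overlap and 27.5% lay lower. Since the same values chose the pairs, nothing is read from these shares. Higher genes made up 62.9% of those counted. With library totals in place of TMM factors that share was 47.7% (906 genes higher and 995 lower), while the median difference of all genes moved from 0.02 to −0.07, so the balance of higher and lower genes rests on the scaling. Protein-coding genes made up 1100 of the 1196 higher genes and 456 of the 706 lower genes. The higher genes were also the more abundant, with a median mean level of 13.1 CPM against 3.21 CPM for the lower genes. The genes beside the 2-fold threshold are given for 10 CPM or more without overlap, unnamed predicted genes left out. On the higher side Pga5 (1.01) and Gfra2 (1.01) lay inside and Dlk1 (1.00) and Ptgs2 (1.00) just outside. On the lower side Sohlh2 (−1.03) and Tuba3a (−1.04) lay inside and Pacsin1 (−0.99) and Fam81a (−0.97) outside.

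**Figure D1:**
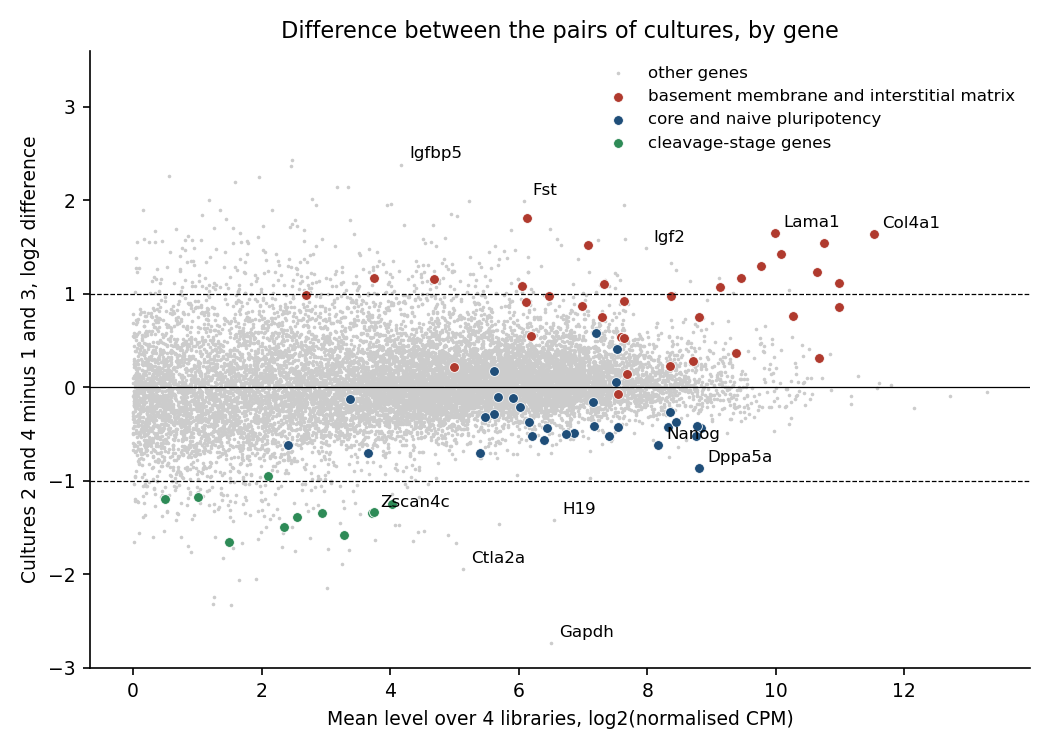
Each point is a gene: the horizontal axis is its mean level over the 4 libraries as log2 CPM, the vertical axis the log2 difference between cultures 2 and 4 and cultures 1 and 3, with dashed lines at 2-fold. Red matrix genes lie mostly above 0 (Col4a1 1.64), blue pluripotency genes mostly between 0 and −1 (Nanog −0.62), and the green cleavage-stage genes from −0.95 to −1.65.

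Within each direction, cultures 1 and 2 tended to lie at the ends. Of the higher genes, 71.7% were higher in culture 2 than in culture 4 and 66.0% were higher in culture 3 than in culture 1. Both held for 600 of 1196 higher genes (50.2%), and the mirror order held for 349 of 706 lower genes (49.4%). Only 48 of the higher genes were 2-fold apart between cultures 2 and 4, and 18 between cultures 1 and 3.

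Basement membrane genes were among the abundant genes with the largest differences. Of 15 members, 10 were counted as higher, 8 of them 2-fold or more, and none as lower. The median difference was 1.08, against 0.02 for all genes. Over all genes compared, 7.87% were counted as higher and 4.65% as lower, and each list count below is to be read beside these shares. Col4a1, which encodes the first chain of the ubiquitous collagen IV trimer, stood at 1238 and 1649.9 CPM in cultures 1 and 3 and 4951 and 3999 CPM in cultures 2 and 4. The cultures did not overlap, and the difference was 1.64 on the log2 scale, or 3.11-fold. Its partner chain Col4a2 stood at 781 and 982 CPM in cultures 1 and 3 and 2754 and 2372 CPM in cultures 2 and 4 (log2 difference 1.54). In both genes culture 2 was highest and culture 1 lowest. In bulk RNA such values cannot tell fewer cells of a type from less RNA per cell.

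The pair of collagen IV genes is shown by sequence because the genes stand head to head on mouse chromosome 8, with starts 21 bases apart, and were higher together. The windows below run from 250 bases before to 50 after the annotated start, are written 5′ to 3′ on the strand of each gene, and come from RefSeq on GRCm38.p6, which is not the authors' build. Capitals mark the GC box, GGGCGG on either strand. Col4a1 lies on the minus strand (chr8:11312777-11313076) and Col4a2 on the plus strand (chr8:11312555-11312854), and the windows share 78 bases.
Col4a1: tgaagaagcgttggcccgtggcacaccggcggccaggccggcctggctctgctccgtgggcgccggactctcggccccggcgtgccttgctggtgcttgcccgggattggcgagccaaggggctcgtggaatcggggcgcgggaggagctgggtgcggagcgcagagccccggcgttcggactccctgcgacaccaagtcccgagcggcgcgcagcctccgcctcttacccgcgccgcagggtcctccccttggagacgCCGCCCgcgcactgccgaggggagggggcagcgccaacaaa
Col4a2: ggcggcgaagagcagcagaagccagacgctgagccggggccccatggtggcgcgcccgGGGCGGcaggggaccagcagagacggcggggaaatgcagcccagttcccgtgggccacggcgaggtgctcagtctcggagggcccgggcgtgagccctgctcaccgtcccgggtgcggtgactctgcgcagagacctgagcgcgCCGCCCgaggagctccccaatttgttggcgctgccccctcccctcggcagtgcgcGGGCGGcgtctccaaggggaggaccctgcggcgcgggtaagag
The GC box occurred 1 time in the Col4a1 window and 3 times in the Col4a2 window. The Col4a1 box and the last Col4a2 box are the same site, read on opposite strands within the shared bases. A GC box occurred in 57.8% of the promoters of higher genes, 43.7% of lower genes and 64.5% of all genes past the filter. These windows held 37 and 33 CG dinucleotides, against a median of 21 in promoters of genes past the filter. A match to these letters is not evidence of a bound factor.

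Laminin 111, the trimer of the early embryo, is built from the products of Lama1, Lamb1 and Lamc1. Lama1 stood at 435 and 532 CPM in cultures 1 and 3 and 1879 and 1220.2 CPM in cultures 2 and 4, a difference of 1.65. Lamb1 stood at 527 and 648 CPM against 1829.7 and 1353 CPM in the same order, a difference of 1.43, and Lamc1 at 857 and 1033 CPM against 2585 and 1907 CPM, a difference of 1.24. For all 3 chains, both of cultures 2 and 4 lay above both of cultures 1 and 3. Sparc, a collagen-binding glycoprotein made in quantity by parietal endoderm, stood at 1229 and 1319 CPM in cultures 1 and 3 and 3242 and 2336 CPM in cultures 2 and 4 (difference 1.11). Nid1, the nidogen that links laminin to collagen IV, was higher by less, with 857 and 981 CPM against 1634 and 1479.9 CPM (difference 0.76).

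Not every component of the sheet took part. Lama5, the laminin alpha chain of later epithelia and of embryonic stem cells, stood at 191 and 193 CPM in cultures 1 and 3 and 182 and 184 CPM in cultures 2 and 4, a difference of −0.07. The differences of Hspg2 (perlecan), Nid2 and Agrn (agrin) were 0.28, 0.23 and 0.15, below the 1.5-fold threshold. The minor collagen IV chains Col4a5 and Col4a6 differed by 1.08 and 1.17. Summed over the 15 members, the basement membrane list held 7429 and 8660.0 CPM in cultures 1 and 3 and 20823 and 16663 CPM in cultures 2 and 4.

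Markers of parietal endoderm were counted as higher in 18 of 20 members (7.87% over all genes), with a median difference of 1.22. Of the 20, 6 are the collagen, laminin and Sparc genes already given. Outside the matrix, Fst, which encodes the activin-binding protein follistatin, stood at 21.6 and 32.2 CPM in cultures 1 and 3 and 132 and 85.7 CPM in cultures 2 and 4, a difference of 2.00 or 3.99-fold. Thbd, the thrombin receptor thrombomodulin that marks this lineage, stood at 9.60 and 13.4 CPM in cultures 1 and 3 and 42.8 and 27.0 CPM in cultures 2 and 4 (difference 1.54). For both genes, the lower value of cultures 2 and 4 lay above the higher value of cultures 1 and 3. Pth1r, the receptor for parathyroid hormone-related peptide, differed by 1.46, and Snai1, a repressor of E-cadherin, by 0.76. Vim (vimentin) and Plau (urokinase) had differences of 0.30 and 0.35, under the threshold.

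The transcription factors of primitive endoderm were higher with the matrix. Of 13 listed regulators 9 were counted as higher (7.87% over all genes) and none as lower, with a median difference of 0.69. Gata4, Gata6 and Pdgfra are also in the parietal list. Sox17 stood at 11.7 and 12.9 CPM in cultures 1 and 3 and 38.0 and 36.7 CPM in cultures 2 and 4, and both cultures of one pair were close to each other and apart from the other pair (difference 1.56). Gata4 stood at 32.0 and 46.3 CPM in cultures 1 and 3 and 115 and 90.5 CPM in cultures 2 and 4 (difference 1.39), and Gata6, which acts before it, at 44.4 and 60.2 CPM against 98.9 and 77.9 CPM (difference 0.76). Pdgfra, the surface receptor used to mark primitive endoderm, stood at 106 and 118 CPM in cultures 1 and 3 and 275 and 242 CPM in cultures 2 and 4 (difference 1.20). The endoderm factor Foxa2 differed by 1.24 and Sox7 by 0.90. Dab2, an adaptor for endocytosis that follows Gata6, differed by 0.64, while Hnf4a (0.51) and Foxq1 (0.50) stayed under the threshold. Sall4, which serves both lineages, had a difference of −0.16.

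Visceral endoderm, the other descendant of primitive endoderm, had no common direction. Of 21 listed markers 19 passed the filter, 8 were higher and 2 lower, and the median difference was 0.03. Of the 8 higher members Afp, Ttr, Apoa1 and Apob encode secreted plasma proteins. Afp, alpha-fetoprotein, stood at 2.09 and 4.04 CPM in cultures 1 and 3 and 26.8 and 7.94 CPM in cultures 2 and 4 (difference 2.14), and Ttr, the thyroid hormone carrier, at 1.28 and 1.84 CPM in cultures 1 and 3 and 9.67 and 5.19 CPM in cultures 2 and 4 (difference 1.90). Culture 2 held the top value of both genes. The receptor pair that takes up vitamin B12 went the other way: Amn stood at 4.87 and 5.88 CPM against 3.33 and 2.93 CPM (difference −0.69), and Cubn at 57.2 and 62.8 CPM against 56.9 and 32.9 CPM (difference −0.46), with cultures 1, 2 and 3 near each other. Apoe, the lipid carrier, had 342 and 353 CPM against 330.5 and 345 CPM and overlapped between the pairs. The endocytic receptor list shares Dab2, Amn, Cubn and Lrp2 with these lists. It had 2 of 12 members higher and 1 lower, against 7.87% and 4.65% of all genes.

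Gastrokines are small secreted proteins of the stomach lining. Of the 9 genes listed with them as secreted peptides of endoderm, 4 passed the filter, 3 of them higher (Gkn1, Gkn2 and Spink1) and 1 lower (Ctla2a). Spink1, a trypsin inhibitor, differed by 1.20 and Ctla2a by −1.94. Gkn3, Tff1, Tff2, Tff3 and Ctla2b did not pass, and Gkn3 and Tff1 had 0 counts in every culture. Gkn1 and its neighbour Gkn2 were both higher, at 3.75 and 4.83 CPM against 20.1 and 12.7 CPM (difference 1.79) and 11.2 and 13.7 CPM against 66.4 and 31.9 CPM (difference 1.85), in cultures 1 and 3 against 2 and 4. These levels were low, and culture 2 held the top value of each. Their promoter windows are shown because the pair lies close together, with starts 22.4 kb apart on chromosome 6, and had like differences. Gkn1 is on the minus strand (chr6:87350866-87351165) and Gkn2 on the plus strand (chr6:87373115-87373414), both RefSeq on GRCm38.p6. Capitals mark GATA motifs (AGATAA or TGATAA on either strand), the TATA box (TATAAA) and the GC box.
Gkn1: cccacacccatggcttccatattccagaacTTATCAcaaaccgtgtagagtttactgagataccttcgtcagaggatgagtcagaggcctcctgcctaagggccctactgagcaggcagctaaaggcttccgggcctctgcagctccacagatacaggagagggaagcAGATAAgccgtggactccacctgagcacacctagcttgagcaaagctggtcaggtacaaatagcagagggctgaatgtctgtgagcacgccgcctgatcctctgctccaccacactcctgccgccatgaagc
Gkn2: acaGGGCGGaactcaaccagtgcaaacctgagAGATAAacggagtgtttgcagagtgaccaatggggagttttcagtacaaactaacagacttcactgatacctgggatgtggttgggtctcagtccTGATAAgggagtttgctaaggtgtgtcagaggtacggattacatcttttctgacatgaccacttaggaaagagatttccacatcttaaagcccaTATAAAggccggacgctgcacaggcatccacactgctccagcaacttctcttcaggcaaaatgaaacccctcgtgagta
Each window held 2 GATA motifs. Across genes the GATA motif occurred in 10.5% of 829 promoters of higher genes, 12.4% of 421 promoters of lower genes and 9.35% of 10798 promoters of genes past the filter. The share among higher genes lay below that among lower genes.

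**Figure D2:**
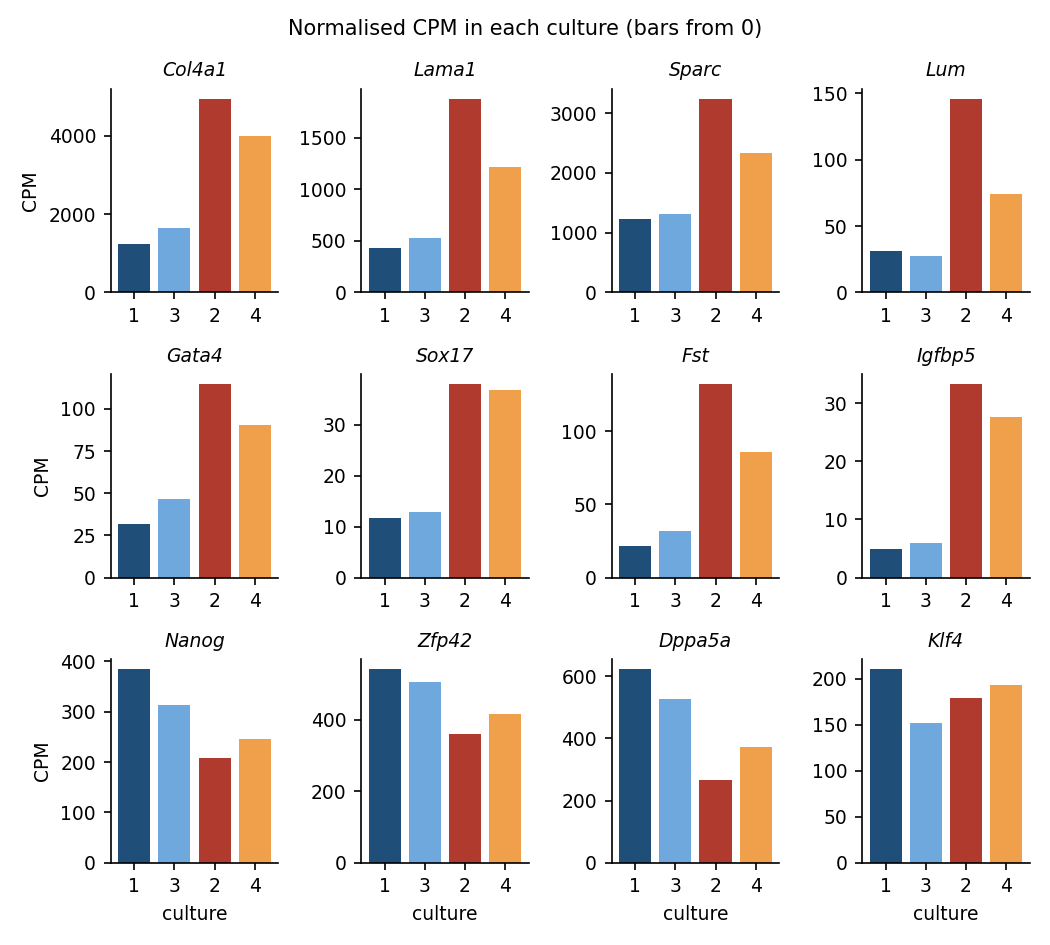
Bars give the normalised CPM of 12 genes in each culture, from 0, with cultures 1 and 3 in blue and cultures 2 and 4 in red and orange. The matrix and endoderm genes in the upper 2 rows are higher in both of cultures 2 and 4, Nanog, Zfp42 and Dppa5a are lower, and Klf4 overlaps.

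Interstitial matrix, the fibrillar matrix of connective tissue, was higher as well. Of its 20 members 15 were counted as higher (7.87% over all genes) and none as lower (4.65%), with a median difference of 0.95. The fibrillar collagen Col1a2 stood at 556 and 440.2 CPM in cultures 1 and 3 and 1557 and 949.6 CPM in cultures 2 and 4 (difference 1.30), and Col3a1 at 463 and 391 CPM against 1223 and 754 CPM (difference 1.17). Lum, the collagen-binding proteoglycan lumican, stood at 31.3 and 27.3 CPM in cultures 1 and 3 and 146 and 74.3 CPM in cultures 2 and 4, a difference of 1.82. Decorin (Dcn), of the same family, stood at 65.1 and 69.5 CPM in cultures 1 and 3 and 258 and 146 CPM in cultures 2 and 4 (difference 1.52). Culture 2 was the highest for all 4 genes. In contrast to collagen IV, Lum, Col1a2 and Col3a1 were lower in culture 3 than in culture 1. Fibronectin (Fn1) and periostin (Postn) had differences of 0.32 and 0.21, and Postn overlapped. Summed, the list held 6533 and 5481 CPM in cultures 1 and 3 and 12054 and 9063 CPM in cultures 2 and 4.

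Markers of fibroblasts and mesenchyme had 9 of 14 members past the filter higher and none lower, a median of 0.64, and 4 of those 9 are matrix genes of the list before. Thy1, a surface glycoprotein of fibroblasts, and Zeb2, a mesenchymal repressor, differed by 0.80 and 0.92. Pdgfrb, the receptor that marks fibroblasts and pericytes, stood at 33.8 and 32.9 CPM against 51.8 and 45.0 CPM, a difference of 0.53 and so under the threshold. Desmin (Des), of muscle and stellate cells, had a difference of −0.55, and alpha smooth muscle actin (Acta2) of 0.28 with overlap.

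Enzymes that fold and crosslink collagen differed in part. Of 20 members 7 were higher, 6 of them 2-fold or more, and none lower. P4ha1, the catalytic subunit of prolyl hydroxylase that stabilises the collagen helix, stood at 183 and 225 CPM in cultures 1 and 3 and 595 and 393 CPM in cultures 2 and 4 (difference 1.25). Plod2, a lysyl hydroxylase that prepares crosslinks, stood at 166 and 206 CPM in cultures 1 and 3 and 579 and 377 CPM in cultures 2 and 4 (difference 1.34), and Serpinh1, the collagen chaperone Hsp47, at 301 and 378 CPM in cultures 1 and 3 and 841 and 689.6 CPM in cultures 2 and 4 (difference 1.17). P3h2, a hydroxylase that acts on collagen IV, differed by 1.59 and the lysyl oxidase Loxl2 by 1.14. P4ha3, Lox and Loxl3 overlapped between the pairs. Among matrix proteases and their inhibitors 9 of 18 were higher, led by Adamts9, a proteoglycan-cleaving protease, at 72.2 and 83.4 CPM in cultures 1 and 3 and 423 and 215 CPM in cultures 2 and 4 (difference 1.95). The inhibitor Timp3 differed by 1.02 and Timp1 by −0.02.

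Receptors and export machinery had smaller differences than the matrix they serve, with medians of 0.34 for integrins and 0.30 for the secretory pathway. Of 16 integrins and other matrix receptors 3 were counted as higher, Itga1 (0.95), Cd44 (0.72) and Ddr2 (0.69), while Itgb1, the beta chain common to many integrins, had a difference of 0.53. Dag1 (dystroglycan) and Itgb4 overlapped. Of 20 secretory pathway genes 3 were higher (7.87% over all genes). Creb3l1, a transcription factor of matrix-secreting cells, stood at 40.8 and 43.4 CPM in cultures 1 and 3 and 111 and 89.8 CPM in cultures 2 and 4 (difference 1.23). Creb3l2 and the COPII coat gene Sec24d differed by 0.68 and 0.61. Of 20 chaperones of the endoplasmic reticulum none reached 1.5-fold, and 17 lay higher in cultures 2 and 4 without overlap (33.3% over all genes), with a median of 0.31. Gpc6 was the only one of 9 glypicans and syndecans past the filter that was counted, at 1.15.

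**Figure D3:**
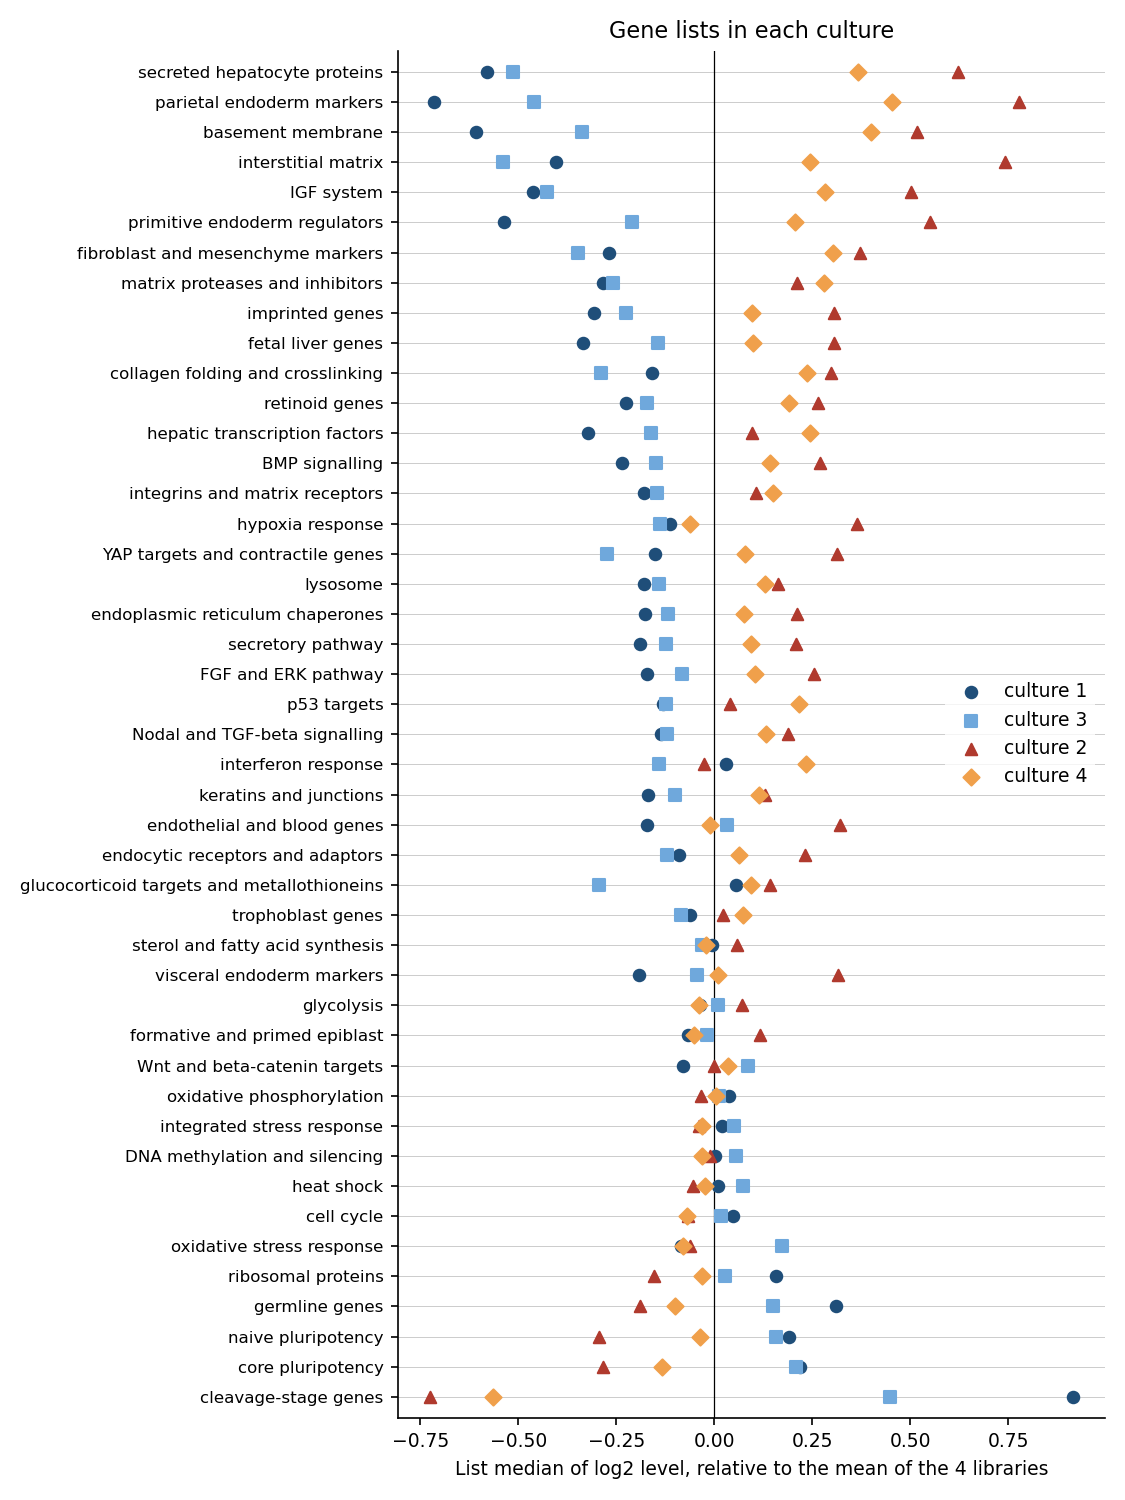
Rows are gene lists with at least 10 members past the filter, and each symbol is the median over members of the log2 level in a culture, relative to the mean of the 4 libraries. Lists of matrix and extraembryonic endoderm have cultures 2 and 4 on the right (basement membrane median difference 1.08), pluripotency and cleavage-stage lists have them on the left (−0.43 and −1.34), and metabolic lists sit near 0.

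Pluripotency genes were lower, but by little. Of 14 core members 12 lay below in cultures 2 and 4 without overlap, against 27.5% of all genes, while only 3 passed the 1.5-fold threshold, and the median difference was −0.43. Nanog, a homeodomain factor that holds cells in the naive state, stood at 385 and 314 CPM in cultures 1 and 3 and 209 and 246 CPM in cultures 2 and 4 (difference −0.62). Dppa5a, an RNA-binding protein abundant in stem cells, stood at 622 and 528 CPM in cultures 1 and 3 and 265 and 373 CPM in cultures 2 and 4 (difference −0.86), and the low Dppa3 at 7.76 and 5.29 CPM against 3.05 and 5.27 CPM (difference −0.61), where cultures 3 and 4 all but met. Pou5f1 (Oct4) stood at 362 and 367 CPM in cultures 1 and 3 and 249.8 and 297 CPM in cultures 2 and 4 (difference −0.42), and Sox2 at 80.3 and 81.7 CPM against 56.5 and 69.1 CPM (difference −0.37). Both factors of the core circuit had their lowest value in culture 2. Lin28a, which blocks let-7 processing, was the exception: it stood at 92.5 and 146 CPM in cultures 1 and 3 and 199 and 154 CPM in cultures 2 and 4, a difference of 0.59. Summed, the core list held 3294 and 3199 CPM in cultures 1 and 3 and 2257 and 2456 CPM in cultures 2 and 4.

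The naive list gave the same picture, with 14 of 20 members lower without overlap (27.5% over all genes), 3 of them past 1.5-fold, and a median of −0.39, or −0.26 without library 2. The germline and naive regulator Prdm14 stood at 16.2 and 15.1 CPM against 9.40 and 9.45 CPM (difference −0.70), and Tcl1, a coactivator of Akt, at 54.3 and 51.0 CPM against 31.2 and 33.0 CPM (difference −0.70). Esrrb, a nuclear receptor that sustains self-renewal, stood at 531 and 470.5 CPM in cultures 1 and 3 and 334 and 420.1 CPM in cultures 2 and 4 (difference −0.42), and Tfcp2l1 and Tbx3 differed by −0.37 and −0.52. Klf4 stood at 211 and 152 CPM in cultures 1 and 3 and 179 and 193 CPM in cultures 2 and 4 and overlapped, with a difference of 0.05 that turned to −0.04 with library totals. Stat3 (0.41) and Socs3 (0.18), also of the naive list, lay higher in cultures 2 and 4, unlike the 14 members that lay lower without overlap. Pecam1, which is expressed by naive stem cells as well as endothelium, stood at 82.2 and 92.6 CPM against 55.3 and 66.8 CPM (difference −0.52).

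Genes of the next epiblast states did not differ the opposite way as a list. Of 18 formative and primed members 15 passed the filter, 5 were higher and none lower, and the median difference was −0.00. Otx2, a driver of the formative state, stood at 9.32 and 10.2 CPM in cultures 1 and 3 and 17.3 and 11.0 CPM in cultures 2 and 4 (difference 0.48), with culture 2 alone well above the rest. Pou3f1 and Dnmt3b, both induced on leaving the naive state, had differences of −0.32 and −0.16. The higher members were Fst, Sall2, Lef1, Sox4 and Cdh2, of which Fst also stands in the parietal endoderm list. Fgf5, the classical marker of primed epiblast, had 9 to 26 counts and did not pass the filter.

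Genes of cleavage-stage embryos had the lowest median of the 50 lists. These genes are active at the time of zygotic genome activation and are switched on for a time in rare stem cells. All 12 members past the filter were lower, 11 of them 2-fold or more, with a median difference of −1.34. Tcstv3 averaged under 1 CPM in cultures 2 and 4 and passed only through cultures 1 and 3, as did Rhox13 among germline genes; Apoa1 (visceral endoderm) and Myh7 (cardiac) passed only through cultures 2 and 4. Zscan4c, a zinc-finger gene of this state, stood at 22.6 and 15.8 CPM in cultures 1 and 3 and 6.80 and 7.51 CPM in cultures 2 and 4, a difference of −1.34. Its window (chr7:11005495-11005794, plus strand, RefSeq on GRCm38.p6) is shown as a contrast to the CG-rich collagen promoters, with a TATA box in capitals.
Zscan4c: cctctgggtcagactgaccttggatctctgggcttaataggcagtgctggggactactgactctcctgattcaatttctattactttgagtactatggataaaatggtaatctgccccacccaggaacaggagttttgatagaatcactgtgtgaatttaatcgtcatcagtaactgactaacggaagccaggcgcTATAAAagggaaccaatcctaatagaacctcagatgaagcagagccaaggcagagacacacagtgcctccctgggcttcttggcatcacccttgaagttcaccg
It held 4 CG dinucleotides. Among promoters of lower genes the median was 10 and among those of higher genes 17, both below the 21 of all genes past the filter. In all 27025 promoters with a sequence, expressed or not, it was 7.

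Gene families known from this stage were gathered by symbol into 6 groups after values had been seen. They share members with the list above, such as Zscan4c, Tcstv3 and Usp17l genes. Eif1ad and Eif4a3l genes and Tcstv2b are among the 15 lowest genes of 10 CPM or more, unnamed predicted genes left out. Their common lower direction was thus known beforehand and adds no separate support. Over all genes 4.65% were counted as lower. The Eif1ad genes, relatives of a translation initiation factor gene, summed to 221 and 154 CPM in cultures 1 and 3 and 56.0 and 65.3 CPM in cultures 2 and 4, 3.03-fold lower, with all 12 members past the filter counted as lower. The Zscan4 genes summed to 159 and 109.6 CPM against 48.2 and 51.5 CPM, 2.63-fold lower, with 8 of 8 members. Tcstv genes were 3.48-fold lower (8 of 8 past the filter) and Usp17l deubiquitinase genes 3.06-fold (5 of 5). Eif4a3l genes were 3.28-fold lower (2 of 2) and Tdpoz genes 3.90-fold (3 of 3). These counts leave out members below the filter: 13 Tcstv and 8 Tdpoz genes had a count. Tcstv3 passed only through cultures 1 and 3, and family members outside the gene lists were not checked for this. The Tdpoz genes summed to only 1.62 and 5.04 CPM in cultures 2 and 4. Members of each family are close copies, so reads may be shared between them, and the sums are safer than single members. In all 6 families culture 1 was the highest and culture 2 the lowest.

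**Figure D4:**
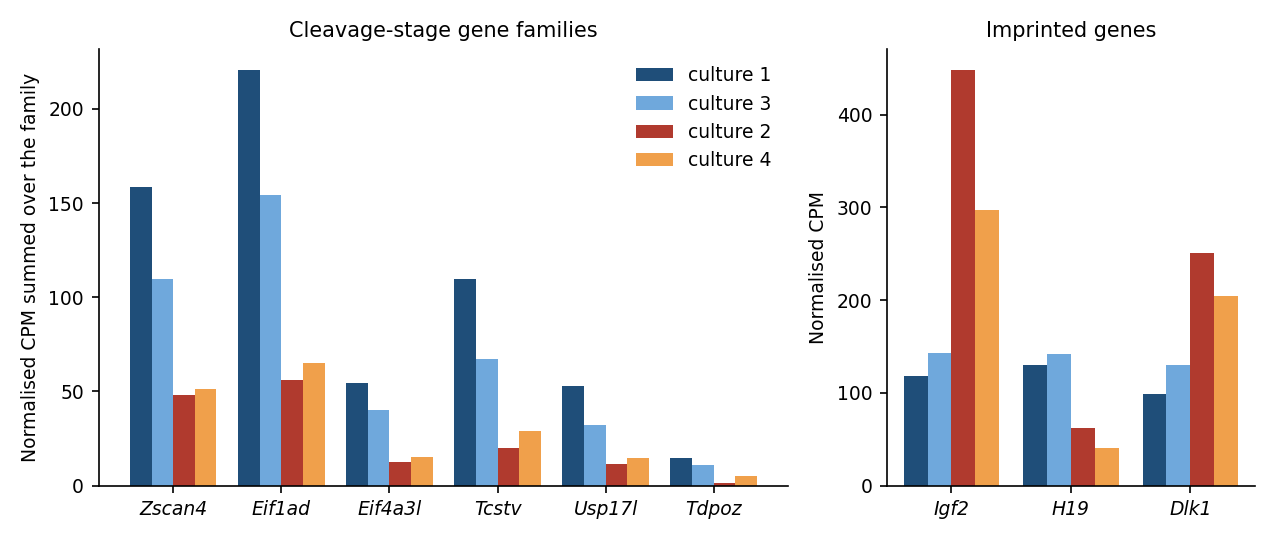
Left, normalised CPM summed over 6 gene families of cleavage-stage embryos, and right, normalised CPM of 3 imprinted genes, with bars from 0 for cultures 1, 3, 2 and 4. The families are 2.63-fold to 3.90-fold lower in cultures 2 and 4, H19 is lower, and Igf2 and Dlk1 are higher.

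Many germline genes are silenced by DNA methylation in somatic cells. Of 15 listed germline genes past the filter 5 were lower (4.65% over all genes) and none higher. Dazl, an RNA-binding protein of germ cells, stood at 19.7 and 11.8 CPM in cultures 1 and 3 and 5.03 and 7.59 CPM in cultures 2 and 4 (difference −1.23). Outside the list, Stra8 and Sohlh2 are given for their place among the lowest genes and at the 2-fold threshold. Stra8, the meiotic gatekeeper induced by retinoic acid, stood at 34.0 and 30.4 CPM in cultures 1 and 3 and 8.13 and 13.98 CPM in cultures 2 and 4 (difference −1.55), and Sohlh2, a germ cell transcription factor, at 32.9 and 18.5 CPM against 10.6 and 13.2 CPM (difference −1.03). Within the list, the piRNA helicase gene Mov10l1 and Tex19.1 differed by −0.62 and −0.59, while Ddx4 and Sycp3 overlapped. Of 16 DNA methylation and silencing genes 1 was counted, Tet3, which was higher at 29.6 and 32.3 CPM against 59.0 and 51.7 CPM (difference 0.83). Among DNA methyltransferases, Dnmt1 (0.04), Dnmt3l (−0.24) and Dnmt3a (0.38) overlapped, and Dnmt3b lay lower without overlap (−0.16). A part of methylation in the germline differences was not tested.

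Among other lower genes, Ctla2a, the cathepsin inhibitor named with the gastrokines, stood at 67.7 and 45.0 CPM in cultures 1 and 3 and 13.7 and 14.3 CPM in cultures 2 and 4 (difference −1.94). Among genes of 10 CPM or more without overlap, unnamed predicted genes left out, Gapdh had the largest negative difference (−2.73). It stood at 197 and 121 CPM in cultures 1 and 3 and 20.2 and 25.7 CPM in cultures 2 and 4. However, the genome holds many near-identical copies of Gapdh and its count is uncertain. Of 24 glycolysis genes Gapdh was the only one counted as lower, and 1 was counted as higher. Without overlap 7 lay lower (27.5% over all genes), among them Aldoa (−0.51), and 4 lay higher. Pgk1, Eno1 and Pkm differed by 0.07, 0.05 and 0.10. Sumo2, a ubiquitin-like modifier that also has copies, stood at 89.8 and 63.2 CPM against 29.6 and 24.7 CPM (difference −1.46). Of 15 trophoblast genes past the filter 2 were higher and 3 lower, with a median of 0.13. Krt19, a keratin, and Plac1, a placental gene, were the higher ones (1.02 and 0.76). Of the lower ones, Elf5 had 6.10 and 2.50 CPM against 0.677 and 0.178 CPM (difference −2.32), Eomes 12.9 and 8.45 CPM against 3.96 and 4.15 CPM (difference −1.26) and Cdx2 2.12 and 1.84 CPM against 0.808 and 1.17 CPM (difference −0.74), all at low levels. Elf5 and Cdx2 averaged under 1 CPM in cultures 2 and 4 and passed the filter only through cultures 1 and 3. Gata2 and Gata3 had differences of 0.55 and 0.18, the second with overlap.

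Imprinted genes, expressed from a single parental allele and many of them regulators of fetal growth, were higher more often than lower: 14 of 29 past the filter were higher, 1 was lower, and the median was 0.57. The lower gene was H19, the maternally expressed noncoding RNA that shares enhancers with Igf2. H19 stood at 130.4 and 142 CPM in cultures 1 and 3 and 62.6 and 41.0 CPM in cultures 2 and 4 (difference −1.42) and Igf2, the paternally expressed growth factor, at 118 and 143 CPM in cultures 1 and 3 and 448 and 297 CPM in cultures 2 and 4 (difference 1.49). The neighbours thus lay in opposite directions, without overlap in either. Igf2r, the receptor that clears Igf2, stood at 786 and 755 CPM in cultures 1 and 3 and 1689 and 1478 CPM in cultures 2 and 4 (difference 1.04). Mest stood at 17.6 and 38.2 CPM in cultures 1 and 3 and 90.0 and 45.0 CPM in cultures 2 and 4 (difference 1.28), and Zim1 at 23.7 and 23.1 CPM against 109 and 41.8 CPM (difference 1.51), with culture 2 well above culture 4 in both. Peg3 and its neighbour Usp29 differed by 1.01 and 0.63, Cdkn1c, a cell cycle inhibitor, by 0.90, and Dlk1, a Notch pathway ligand of fetal tissue, by 1.00. The Dlk1 neighbour Meg3 had a difference of 0.34, and Snrpn, Nnat, Impact and Phlda2 lay between −0.22 and 0.04.

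Insulin-like growth factor genes went beyond Igf2. Of 16 members past the filter 11 were higher (7.87% over all genes), none was lower, and the median was 0.90. Igfbp5, a binding protein held in the matrix, had the largest positive difference of the named genes, at 4.95 and 5.92 CPM in cultures 1 and 3 and 33.3 and 27.6 CPM in cultures 2 and 4 (2.38, or 5.21-fold). Pappa, the protease that frees growth factor from binding proteins, stood at 14.4 and 13.3 CPM in cultures 1 and 3 and 64.0 and 40.1 CPM in cultures 2 and 4 (difference 1.84), and Stc1, its inhibitor stanniocalcin, at 8.32 and 9.56 CPM against 21.8 and 21.4 CPM (difference 1.23). The receptor genes Igf1r and Insr differed by 0.80 and 0.65, and the adaptors Irs1 and Irs2 by 1.00 and 0.68. Igfbp2 lay the other way at −0.46, and Igfbp7 overlapped.

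Hepatocyte genes were scarce in every culture. Of 21 secreted plasma proteins 10 passed the filter, 7 counted as higher and 1 as lower (Fetub, −1.06), but 3 of the 7 (Alb, Apoa1 and Fgb) averaged under 1 CPM in cultures 1 and 3 and so passed only through the pair where they are high. The median over all 21 was 0.25. Among those below the filter, Ahsg had 33 and 5 counts in cultures 1 and 3 and 39 and 12 in cultures 2 and 4. Alb, albumin, had 11 and 0 counts in cultures 1 and 3 and 171 and 12 in cultures 2 and 4, so its value rests on culture 2. Rbp4, the retinol carrier, stood at 8.32 and 10.7 CPM in cultures 1 and 3 and 21.6 and 23.5 CPM in cultures 2 and 4 (difference 1.21). Apoa1 and Apob, the main proteins of plasma lipoproteins, stood at 0.23 and 0.329 CPM against 2.79 and 1.17 CPM and 0.944 and 1.12 CPM against 3.44 and 3.31 CPM (differences 1.59 and 1.34). Rbp4, Ttr, Afp, Apoa1 and Apob are made by extraembryonic endoderm as well as liver. The liver markers Fabp1 and Cyp2e1 had 0 counts in all 4 libraries, and Cps1, which starts the urea cycle, had 12 to 37. These defining markers were thus at or near 0 in cells labelled hepatocyte-like, whose sample titles read mESCs.

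Liver-enriched transcription factors were higher in 8 of 19 members past the filter and lower in none, but 5 of those 8 are also in the primitive endoderm list. The rest were Foxa3 (0.63), Prox1 (1.00) and Nr2f1 (0.59). Hhex (−0.46), a regulator of the early liver bud, and Nr5a2 (−0.29) lay lower. Fetal liver genes were higher in 9 of 21 members. Cd24a, a surface protein of progenitor cells, stood at 40.4 and 66.0 CPM in cultures 1 and 3 and 156 and 143 CPM in cultures 2 and 4 (difference 1.52), and Spon1, a matrix protein, at 11.4 and 11.3 CPM against 47.5 and 31.7 CPM (difference 1.73), whereas Igf2bp1 overlapped.

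Definitive endoderm, the embryonic source of liver, was sparsely represented: of 16 primitive streak and definitive endoderm genes 7 passed the filter, 3 higher and 1 lower, with a median of 0.08. Sox17 and Foxa2, both also regulators of primitive endoderm, and Kit (0.77), a receptor of several lineages, were higher, and Eomes (−1.26) was lower, while T, Mixl1 and Mesp1, the genes that mark the streak, stayed at 0 to 22 counts. Of the neural, cardiac, and endothelial and blood lists, 1 of 8, 2 of 9 and 4 of 10 members past the filter were higher (7.87% over all genes). In the same order 0, 2 and 0 were lower (4.65%). At any size, 5, 2 and 4 lay higher without overlap (33.3% over all genes) and 3, 4 and 4 lower (27.5%). Among endothelial and blood genes, Flt1 encodes a receptor for vascular growth factor. It stood at 44.0 and 51.9 CPM in cultures 1 and 3 and 162 and 128 CPM in cultures 2 and 4 (difference 1.58). Cdh5, the endothelial cadherin, stood at 18.3 and 16.2 CPM against 38.7 and 39.9 CPM in the same order (difference 1.16). Kdr (0.25) and Pecam1 had no matching difference. Of the macrophage markers, Ptprc and Adgre1 had 6 to 44 counts, while Csf1r, the receptor for the macrophage growth factor, stood at 7.22 and 8.18 CPM in cultures 1 and 3 and 10.4 and 7.36 CPM in cultures 2 and 4 and overlapped.

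Signalling lists had small medians. Without overlap, 13 of 20 YAP and contractile genes lay higher in cultures 2 and 4, and none lower. Higher were also 13 of 20 FGF and ERK, 13 of 19 BMP and 12 of 21 Nodal and TGF-beta genes, with 3 lower in each list. Medians were 0.32, 0.29, 0.35 and 0.24 in that order. Over all genes 33.3% lay higher and 27.5% lower. Wnt targets had 5 of 15 higher and 5 lower, with a median of −0.02. Egr1, an immediate early gene of ERK signalling, stood at 27.7 and 27.9 CPM in cultures 1 and 3 and 86.3 and 94.8 CPM in cultures 2 and 4 (difference 1.68), and Fos at 7.27 and 6.24 CPM in cultures 1 and 3 and 14.7 and 19.6 CPM in cultures 2 and 4 (difference 1.27). For both, culture 4 was the highest of all. Other feedback genes of the pathway were closer, such as Dusp6 (0.23) and Spry4 (0.38). The BMP antagonist Nog and the ligand Bmp2 differed by 1.45 and 1.01, Bmp7 by −0.78. Nodal, the ligand that maintains epiblast and patterns the streak, stood at 29.5 and 33.5 CPM against 18.4 and 23.4 CPM (difference −0.58), and Tgfbr2, the receptor for TGF-beta, at 46.9 and 52.5 CPM against 92.5 and 97.0 CPM (difference 0.93). Ccn2, a matricellular target of YAP, stood at 43.0 and 48.2 CPM in cultures 1 and 3 and 152 and 83.3 CPM in cultures 2 and 4 (difference 1.30). Of retinoid genes 6 of 16 were higher, Cyp26a1, which degrades retinoic acid, by 1.13.

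Housekeeping programmes lay near the median of all genes. None of 21 oxidative phosphorylation, 25 sterol and fatty acid synthesis, 12 heat shock or 19 oxidative stress members was counted in either direction. Their medians were −0.03, 0.05, −0.09 and −0.11. Ribosomal protein genes were lower by a small amount, with 16 of 20 below without overlap (27.5% over all genes) and a median of −0.20. Relative to the mean of the 4 libraries, their medians were 0.16 and 0.03 in cultures 1 and 3. In cultures 2 and 4 they were −0.15 and −0.03, so cultures 3 and 4 lay close together. Cell cycle genes had a median of −0.10, with Ccnd2 (0.81) and Cdkn1c the 2 members counted. Of hypoxia genes 4 of 22 were higher, and 2 of these, P4ha1 and P4ha2, are collagen enzymes, while Pdk1, Ddit4 and Slc2a1 overlapped. Asns and Chac1, targets of the amino acid response, were lower (−0.63 and −0.61), while Atf4 itself overlapped.

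Transcript length moved with the differences. Lengths of the longest GENCODE M21 transcript were matched for 14145 of the 15188 genes (93.1%). From the shortest to the longest quintile of genes the share counted as higher went 3.89%, 5.30%, 6.90%, 9.26% and 15.2%, and the share counted as lower went 7.03%, 4.98%, 4.07%, 1.84% and 2.01%. The median difference went from −0.11 to 0.19. GC content moved the opposite way, with 9.51% higher and 1.80% lower in the quintile of lowest GC and 5.62% and 6.29% in the quintile of highest GC. Collagens and laminins have long transcripts and ribosomal proteins short ones. The part of length or GC in any list was not tested. RNA integrity values are not given in the labels.

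**Figure D5:**
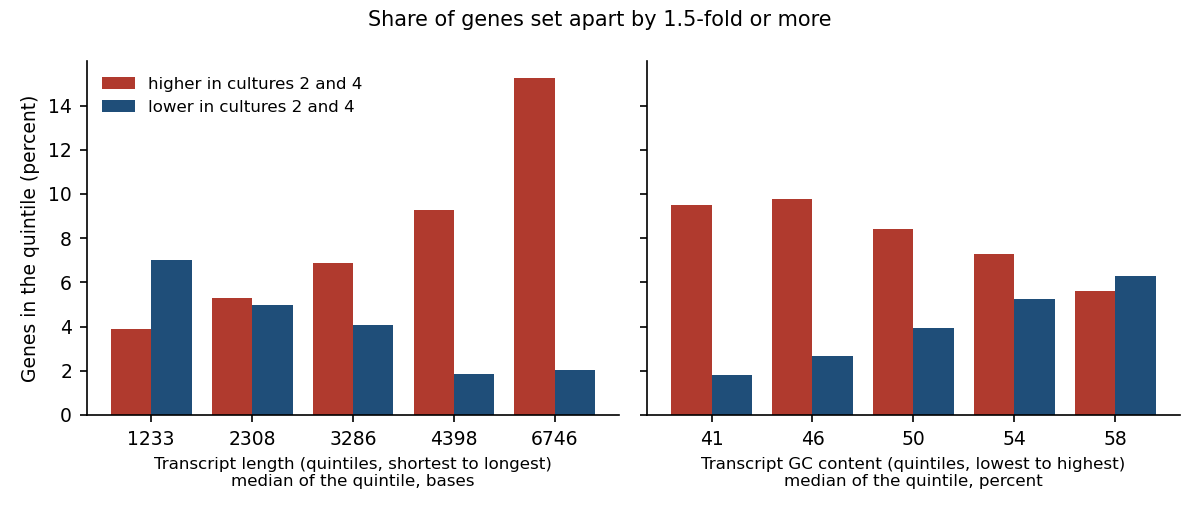
Bars give the percent of genes in each quintile of transcript length (left) and GC content (right) that were at least 1.5-fold higher (red) or lower (blue) in cultures 2 and 4, with the median of the quintile under the bars. Higher genes go from 3.89% to 15.2% of a quintile with length.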

How the data were processed

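RNA from 4 cultures was measured by poly(A) RNA-seq with paired ends and without strand information, per the labels' protocols. The authors deposited raw counts for each gene, made with STAR and featureCounts on GRCm39 (mm39), per the submitters' processing notes. The sources used here do not give tool versions, the gene annotation or how multiply aligned reads and read pairs were counted. Reads of near-identical copies, overlapping genes and antisense genes cannot be told apart. Even numbers made up 60.0% to 62.6% of gene counts from 1 to 8, so a count may be less than 1 fragment. The depth of 29.5 M to 40.2 M counts puts 3 counts at 0.0764 to 0.0986 CPM.

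Counts were scaled with TMM factors (edgeR 4.0.16, R 4.3.3), and genes with a mean of 1 CPM or more were compared on log2(CPM + 0.5) with pandas 2.3.3 and numpy 2.4.6 in Python 3.11.15, with SciPy 1.17.1 for clustering. A gene was counted where libraries 2 and 4 both lay beyond 1 and 3 and the difference reached 1.5-fold. No test was run, since the labels form a single group and the measured values chose the pairs. The members, the 50 gene lists and the alternatives were chosen with earlier results of these data known. Of 821 list members 746 passed the filter, and lists share members. Named genes are the 15 largest differences in each direction at 10 CPM or more, without overlap and with unnamed predicted genes left out. They also include the 4 largest of each list at 5 CPM or more, cell type markers and genes beside the 2-fold threshold. Other list members in the text were chosen after their values were seen. Promoters come from RefSeq (GRCm38.p6) and transcript lengths from GENCODE M21, matched by symbol. The counting was tested on simulated data. Alternatives were DESeq2 (1.42.0) size factors, library totals, other filters and pseudocounts, and leaving out each library.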

Additional observations from a re-analysis of the deposited data

Results flagged for a closer look

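Among 279 gene and list values examined, 8 (2.87%) had a culture whose gap to the nearest of the other 3 took a larger part of the whole range than Dixon's critical value for 4 samples allows, which chance alone exceeds in about 1 of 20 groups. The ratio given is the gap divided by the range. Culture 2 stood above the other 3 in Adamts5, a matrix protease (4.01, 3.52, 15.2 and 4.23 CPM in cultures 1, 3, 2 and 4, ratio 0.939), in Alb (ratio 0.931) and in Slc7a11, the cystine transporter (17.6, 16.6, 33.0 and 17.6 CPM, ratio 0.936). It also stood above them in the median of the hypoxia list (ratio 0.852), so the higher values of these items in cultures 2 and 4 rest mainly on culture 2. Culture 4 stood above the others in Gata3 (8.25 CPM against 6.28 to 6.48, ratio 0.896). Culture 1 was the low one in Map2, a neuronal microtubule protein (4.52 CPM against 6.97 to 7.03, ratio 0.973). Culture 3 was the high one in Srxn1, a target of the oxidative stress response (156 CPM against 91.3 to 99.6, ratio 0.873), and in the median of the oxidative stress list (ratio 0.912). Map2 and Srxn1 still lay apart by pair, by small margins, and Gata3 overlapped.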

How the results depend on the processing

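No paired analysis was possible because the labels form a single group. No named gene counted at 1.5-fold changed sign, but smaller differences did. DESeq2 size factors left all 226 named genes and 50 lists within the spread inside pairs; of 2216 gene values under all alternatives 54 moved, and of 500 list medians 109, among them 26 of 50 under library totals and 19 of 50 without replicate 3 and without replicate 4 each. Sign changed under some alternative in Klf4, Csf1r and Trf and in 8 small list medians (Wnt targets, endothelial and blood, formative epiblast, glucocorticoid, glycolysis, primitive streak, sterol synthesis and visceral endoderm), the last 4 of them under library totals. Library totals gave 906 higher and 995 lower genes (47.7% higher), and medians of 0.56 for fibroblast and −0.53 for core pluripotency genes. Without a filter 1104 genes were lower, and the medians were 0.78 for gastrokines and 0.25 for secreted hepatocyte proteins. At a mean of 10 CPM or more, 672 were higher and 141 lower (82.7% higher), 161 and 25 at 2-fold, and the hepatocyte median was 0.59. A pseudocount of 0.1 gave 271 genes lower at 2-fold and medians of 0.72 (fibroblast) and 1.44 (hepatocyte). A pseudocount of 2 gave 310 lower, 182 higher and 55 lower at 2-fold, 74.2% higher and a hepatocyte median of 0.80. Where values moved, the cause was not tested. Leaving out each library in turn, counts ranged from 1133 to 1518 higher and 679 to 995 lower, and from 267 to 503 and 149 to 259 at 2-fold. Medians ranged from 0.88 to 1.16 for basement membrane, 0.63 to 1.15 for interstitial matrix, 0.63 to 0.73 for fibroblast and 0.65 to 0.93 for IGF genes. They ranged from −0.53 to −0.35 for core pluripotency, −0.50 to −0.26 for naive pluripotency and −1.59 to −1.17 for cleavage-stage genes. The range for secreted hepatocyte genes was 0.96 to 1.37. Of the 10 hepatocyte members past the filter, 3 passed only through cultures 2 and 4, so that range is not read as support. Depth limits genes near 1 CPM, where 3 counts are 0.0764 to 0.0986 CPM.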

Other observations

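Lysosomal genes lay higher in cultures 2 and 4 without overlap in 14 of 18 members (33.3% over all genes), and only Ctsh, a cathepsin, and Lamp2, a membrane glycoprotein of the lysosome, passed 1.5-fold, at 26.0 and 32.3 CPM against 80.8 and 65.4 CPM and 238 and 265 CPM against 436 and 391 CPM (cultures 1 and 3 against 2 and 4). Of 18 targets of p53 5 were higher (7.87% over all genes) and none lower. The largest difference was that of the kinase gene Plk2, at 72.1 and 84.0 CPM against 151 and 155 CPM (difference 0.97). Among keratin and junction genes 5 of 18 were higher, with the simple-epithelium keratin Krt19 at 21.6 and 26.8 CPM against 51.0 and 47.9 CPM (difference 1.02), while E-cadherin (Cdh1) had a difference of −0.24 and N-cadherin (Cdh2) of 0.61. Hsd11b2, which inactivates glucocorticoids, stood at 3.52 and 6.28 CPM against 22.6 and 10.9 CPM (difference 1.64), and the glucocorticoid receptor gene Nr3c1 at 32.5 and 38.1 CPM against 67.3 and 52.8 CPM (difference 0.75), but the receptor's targets Fkbp5, Tsc22d3 and Per1 overlapped. The secreted protease-regulating and adhesive genes Spock1 (1.99) and Fndc1 (1.97) were among the 15 largest positive differences, unnamed predicted genes left out. So were the peptidase Enpep (1.96) and tissue factor, F3 (1.70).

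By chromosome, assigned from RefSeq, the median difference ran from −0.04 on chromosome 7 to 0.11 on chromosome 14. The share counted as higher was largest on chromosome X, at 14.2% of 506 genes, and smallest on chromosome 19, at 5.17% of 484 genes. The TATA box occurred in 12.1% of promoters of higher genes and 12.1% of those of lower genes, against 6.95% of all genes past the filter.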
